A study of Mus musculus with 40 samples.

Results

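The genes described here are 10 genes of tip cells and of Notch signaling in growing blood vessels, taken by name from the 54307 genes of the table: *Esm1*, *Apln*, *Aplnr*, *Dll4*, *Notch1*, *Notch4*, *Jag1*, *Hey1*, *Hey2* and *Unc5b*. All 10 were found once in the table and passed the filter on low values in choroid and in retina. In the GRCm39 assembly the annotation places *Esm1* at chr13:113346021-113354632 on the plus strand, *Apln* at chrX:47114019-47123775 on the minus strand, *Aplnr* at chr2:84966569-84970267 on the plus strand, *Dll4* at chr2:119156170-119166443 on the plus strand, *Notch1* at chr2:26347915-26406675 on the minus strand. It places *Notch4* at chr17:34783220-34807477 on the plus strand, *Jag1* at chr2:136923373-136958693 on the minus strand, *Hey1* at chr3:8726956-8732385 on the minus strand, *Hey2* at chr10:30708350-30718828 on the minus strand and *Unc5b* at chr10:60598372-60667396 on the minus strand, and all 10 are protein-coding genes. RNA of choroid and retina was sequenced from the same 20 mice, 5 each in control – PLX, Tgfbr2ΔEC – PLX, control + PLX and Tgfbr2ΔEC + PLX, which gave 40 libraries. All mice carried floxed *Tgfbr2* alleles on a C57BL/6J background. The Tgfbr2ΔEC mice also carried Cdh5-CreERT2, a tamoxifen-inducible Cre recombinase under the promoter of the endothelial gene *Cdh5*, and the control littermates did not. Mice of both genotypes and of both sexes received tamoxifen eye drops at 6 to 7 weeks of age and 6 laser burns per eye, which break Bruch's membrane and start choroidal neovascularization (CNV), and tissue was taken at day 3. The + PLX mice were fed PLX5622, an inhibitor of the CSF1 receptor that depletes mononuclear phagocytes (MP), from the first tamoxifen application, and the – PLX mice received control food. The recombinase acts in endothelial cells, and the choroid was its central part with the lesions.

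A sprouting vessel is led by a tip cell and followed by stalk cells. VEGF induces the Notch ligand *Dll4* in the tip cell, and DLL4 activates NOTCH1 on its neighbors. The cleaved receptor joins RBPJ in the nucleus to switch on genes such as *Hey1* and *Hey2*, which restrain the neighbors from becoming tip cells. *Jag1*, a second Notch ligand, can compete with DLL4, and *Esm1*, *Apln* and *Unc5b* are used as markers of tip cells and of arterial endothelium. The same Notch genes are also used by Müller glia, neurons and mural cells of the eye, so that in whole tissue they are not endothelial genes alone.

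Tissue identity and targeting were checked first. *Tgfbr2* itself overlapped between the genotypes in every comparison, with a log2 difference of -0.05 without and 0.02 with PLX in choroid (exact permutation p = 0.524 and 0.865) and of -0.32 and -0.07 in retina (exact permutation p = 0.325 and 0.794). At the level of the whole tissue a lower *Tgfbr2* level was therefore not detected. All 12 pan-endothelial markers, such as *Cdh5* and *Pecam1*, were above 0 in every library. The 10 photoreceptor markers of a neural retina list were above 0 in every choroid as well. The depth was about 21628873 to 28331347 reads for a choroid and between 20940403 and 30421580 for a retina, estimated from the steps between low values, and 3 reads corresponded to 2.24 to 3.38 normalized counts in a retina. In bulk tissue, fewer cells of a type and less RNA per cell cannot be told apart.

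Per kilobase of the canonical transcript, *Jag1* was the most abundant of the 10 genes in both tissues, with a mean of 350.4 normalized counts per kb in choroid and 501 in retina. In choroid it was followed by *Notch1* with 287, *Esm1* with 258, *Notch4* with 205, *Aplnr* with 167, *Hey1* with 133, *Apln* with 129, *Unc5b* with 127, *Dll4* with 104 and *Hey2* with 69.6 per kb. The ranges over the 20 choroids overlapped between every pair of neighbors in this order. In retina the order was *Jag1*, *Hey2* with 142, *Notch1* with 94.1, *Hey1* with 75.9, *Unc5b* with 44.0, *Notch4* with 18.6, *Apln* with 10.8, *Dll4* with 9.94, *Aplnr* with 3.05 and *Esm1* with 0.66 per kb. Here *Jag1*, at 351 to 618 per kb, stood above all retinal values of *Hey2*, at 113 to 215, while the other neighbors overlapped. *Hey2* was thus the last of the 10 genes in choroid and the second in retina.

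**Figure D1:**
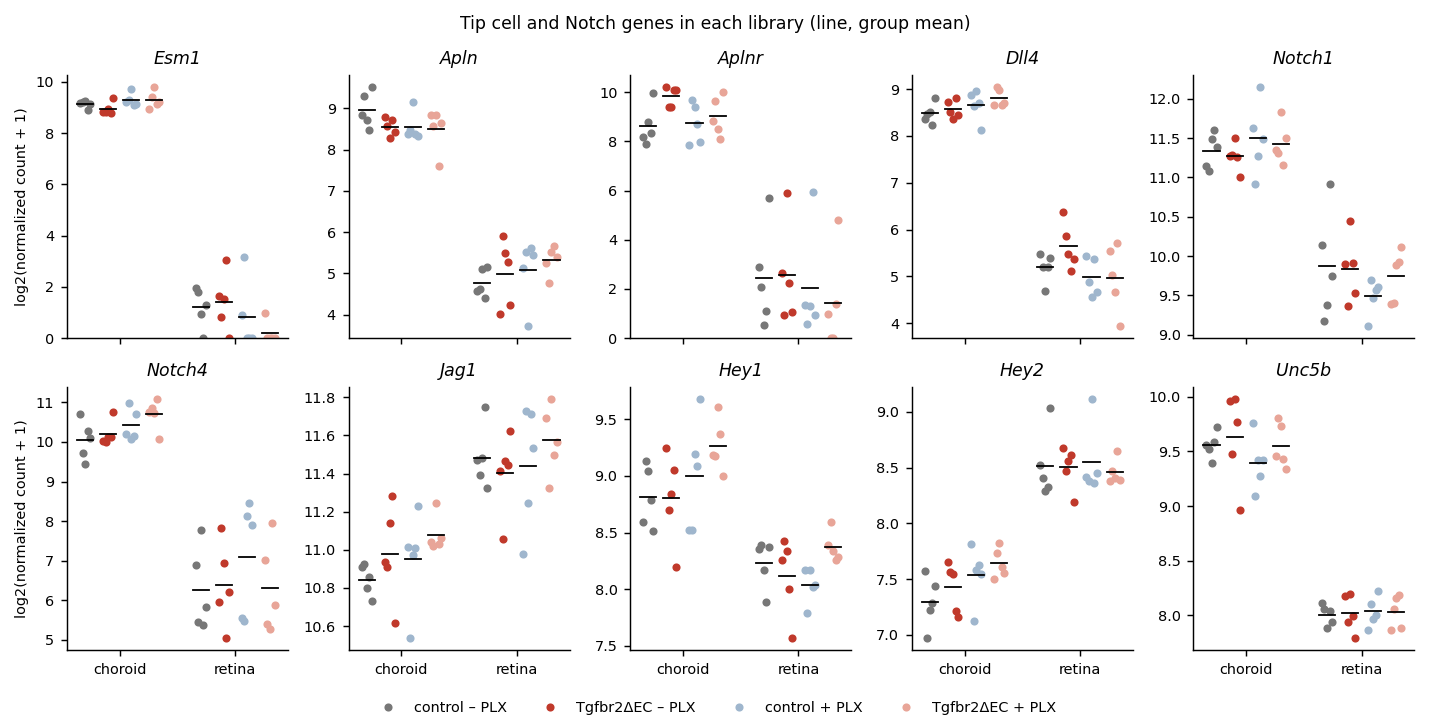
Level of each of the 10 genes in each of the 40 libraries, as log2(normalized count + 1), with 5 mice per group and a line at the group mean; the vertical scale differs between panels. *Esm1* was between 443 and 889 normalized counts in choroid and at most 8.07 in retina, while *Jag1* and *Hey2* were higher in retina.

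Choroid and retina were compared to see where in the laser-treated eye these genes were transcribed. All 10 genes differed between the tissues, 8 being higher in choroid and *Jag1* and *Hey2* higher in retina. Differences between these tissues were the rule: limma called 82.0% of 24317 genes, 40.8% as higher and 41.1% as lower in choroid, so that the count of called genes says little about the 10, and their sizes are given instead. The median log2 difference of the 10 genes was 2.54, against -0.01 over all genes tested.

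*Esm1*, which encodes the proteoglycan endocan secreted by tip cells, showed the largest difference. In choroid it had 572, 597.9, 615, 481 and 557 normalized counts in control – PLX mice, given here and below in the order of mouse number. In the retinas of the same mice it had 2.90, 2.48, 0.90, 0 and 1.49. It was listed at 0 in 9 of 20 retinas and lay at or under 3 reads in 17, while the other 3 retinas were above this floor, with 8.07 as the highest value. Its mean in choroid, 585 ± 119 normalized counts (SD, n = 20), was at least 201-fold higher than the mean floor of a retina, and its fitted log2 difference of 8.26 ± 0.23 (SE; adjusted p = 9.82e-29, limma) depends on the pseudocount.

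The apelin ligand *Apln* and its receptor *Aplnr*, which is found on venous and sprouting endothelium, were both higher in choroid. *Apln* ranged from 194 over a median of 389.6 to 737 normalized counts in choroid and from 12.2 over 35.9 to 59.1 in retina, a log2 difference of 3.60 ± 0.16 (SE). *Aplnr* ranged from 229 over 559.9 to 1182 in choroid. In retina it lay at or under the floor in 12 of 20 libraries, with a median of 1.51. One retina in each group stood far above the others, at 50.3, 58.3, 60.4 and 27.1 normalized counts, against at most 6.41 in the remaining 16. The fitted log2 difference of *Aplnr* was 6.94 ± 0.46 (SE), which depends on the pseudocount as for *Esm1*, while the ratio of the means was 54.7-fold. Its standard deviation between mice, 1.91, was the largest of the 10 genes.

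Of the 2 Notch ligands, *Dll4* was higher in choroid and *Jag1* in retina. *Dll4* ranged from 281 over a median of 403 to 532 normalized counts in choroid and from 14.3 over 38.3 to 82.0 in retina, a 10.8-fold difference (log2 3.43 ± 0.12 SE). *Jag1* ranged from 1483 over 2035 to 2492 in choroid and from 2017 over 2849.9 to 3547 in retina. These ranges overlapped, yet *Jag1* was lower in the choroid than in the retina of 19 of 20 mice (log2 -0.51 ± 0.07 SE, adjusted p = 5.97e-09, limma).

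The receptors *Notch1* and *Notch4* were both higher in choroid, by different amounts. *Notch1*, the receptor used across many cell types, ranged from 1940.0 over 2567 to 4565 normalized counts in choroid and from 551 over 801 to 1934 in retina (log2 1.65 ± 0.12 SE). *Notch4*, which is largely restricted to endothelium, ranged from 697 over 1164 to 2182 in choroid and from 31.9 over 67.2 to 352 in retina (log2 3.83 ± 0.27 SE). Within a group of retinas *Notch4* varied up to 8.12-fold between mice, as in control + PLX, where 2 mice had 45.5 and 43.3 and 3 had 278, 352 and 238 normalized counts.

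The target genes *Hey1* and *Hey2*, transcriptional repressors of the same family, differed in opposite directions. *Hey1* ranged from 293 over 527 to 820.1 normalized counts in choroid and from 188 over 305 to 385 in retina, and it was higher in the choroid of 20 of 20 mice (log2 0.78 ± 0.09 SE). *Hey2* ranged from 124 over 187 to 226 in choroid and from 292 over 345 to 555 in retina. The tissues did not overlap for *Hey2*, which was lower in every choroid than in any retina (log2 -1.03 ± 0.08 SE, 20 of 20 mice). The netrin receptor *Unc5b*, a guidance receptor of tip cells and arteries, ranged from 499 over 722 to 1011 in choroid and from 220.1 over 259 to 298 in retina (log2 1.51 ± 0.07 SE).

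Because *Hey2* is a classical target of the Notch partner RBPJ and *Notch4* an endothelial gene, their promoters are shown with those of *Esm1*, the gene with the largest difference between tissues, and *Dll4*, the Notch ligand of tip cells. RefSeq promoters of assembly GRCm38.p6 were matched by symbol for 8 of the 10 genes, all but *Aplnr* and *Hey1*. Printed are the 250 bases before the annotated start, read 5′ to 3′ on the strand of the gene. They lie at chr10:30842784-30843033 on the minus strand (*Hey2*), chr17:34564045-34564294 on the plus strand (*Notch4*), chr13:113209409-113209658 on the plus strand (*Esm1*) and chr2:119325534-119325783 on the plus strand (*Dll4*). Capitals mark the RBPJ core TGGGAA and the ETS core AGGAAG, on either strand (TTCCCA and CTTCCT).
Hey2: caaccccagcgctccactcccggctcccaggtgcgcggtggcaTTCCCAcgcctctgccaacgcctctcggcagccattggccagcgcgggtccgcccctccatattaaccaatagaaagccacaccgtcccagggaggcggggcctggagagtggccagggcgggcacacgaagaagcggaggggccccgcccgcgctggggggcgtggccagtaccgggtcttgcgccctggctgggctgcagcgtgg
Notch4: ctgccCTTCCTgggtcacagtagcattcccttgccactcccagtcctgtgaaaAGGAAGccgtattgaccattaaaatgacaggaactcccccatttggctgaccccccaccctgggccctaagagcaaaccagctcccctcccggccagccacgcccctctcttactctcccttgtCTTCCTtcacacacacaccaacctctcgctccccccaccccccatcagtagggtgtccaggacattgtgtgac
Esm1: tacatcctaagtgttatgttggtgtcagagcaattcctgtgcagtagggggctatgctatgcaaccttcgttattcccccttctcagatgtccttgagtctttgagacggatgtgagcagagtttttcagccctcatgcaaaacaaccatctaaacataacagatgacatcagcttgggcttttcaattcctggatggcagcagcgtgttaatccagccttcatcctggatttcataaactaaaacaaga
Dll4: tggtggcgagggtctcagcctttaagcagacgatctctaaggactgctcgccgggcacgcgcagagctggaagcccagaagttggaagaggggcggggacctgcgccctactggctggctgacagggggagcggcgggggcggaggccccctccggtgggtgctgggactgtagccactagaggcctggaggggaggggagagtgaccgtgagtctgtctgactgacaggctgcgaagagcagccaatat
TGGGAA was found in 1 of the 8 promoters, that of *Hey2*, 207 bases before the start, and in 21.5% of 27025 promoters of the same length. AGGAAG was found at 3 positions of the *Notch4* promoter, 245, 197 and 73 bases before the start, once in that of *Apln*, and in 29.2% of all promoters. The E-box CACGTG was in none of the 8, against 6.05% of all. The marked motifs did not overlap each other. Such a match describes letters in this window and not binding.

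Choroid also held more endothelial RNA than retina: the pan-endothelial score, the mean of log2(normalized count + 1) over 12 markers, was higher in the choroid of 20 of 20 mice, by 4.25 ± 0.36 (SD, n = 20). The 12 markers themselves differed by 1.92 to 6.98, with a median of 4.44. Each of the 10 genes was therefore set against the score in the same mouse, a comparison chosen after the data had been seen. *Esm1* exceeded the score difference in 20 of 20 mice, by 4.01 on average, and *Aplnr* in 18 of 20, by 2.69 (permutation p = 4e-05 and 0.0001, two-sided, 100000 resamples of 20 mice). *Notch4* did not differ from the score beyond its spread, being above it in 10 mice and below it in 10 (mean -0.42, permutation p = 0.141). *Apln* lay below it in 14 of 20 mice (mean -0.65, permutation p = 0.0149), and *Dll4* in 18 of 20 (mean -0.82, permutation p = 0.00012). *Notch1*, *Unc5b*, *Hey1*, *Jag1* and *Hey2* lay below the score in all 20 mice, with means of -2.60, -2.74, -3.47, -4.76 and -5.28 (permutation p = 4e-05 for each). *Esm1* and *Aplnr* alone among the 10 thus differed more between tissues than the average endothelial marker, although *Emcn*, one of the 12 markers, differed by 6.98, and for both genes the excess depends on the pseudocount, since most retinal values lay at or under the floor.

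**Figure D2:**
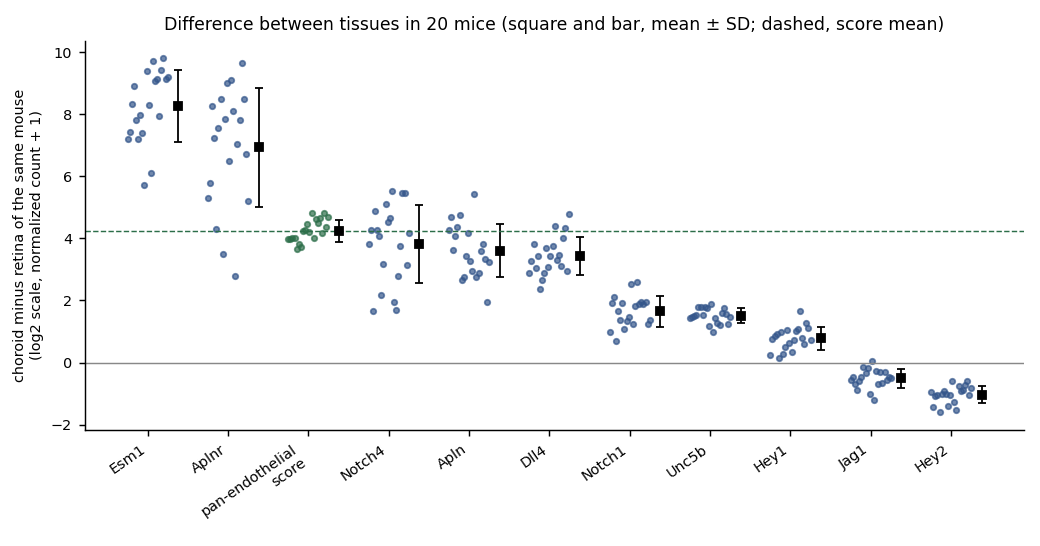
Difference between choroid and retina of the same mouse for the 10 genes and the pan-endothelial score, on the log2(normalized count + 1) scale, 1 point per mouse, with the mean ± SD as a square and bar. *Esm1* and *Aplnr* lie above the dashed mean of the score at 4.25, and *Jag1* and *Hey2* lie below 0.

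Other genes of these pathways, from lists that left the 10 genes out, were read against the same 82.0%. Of 8 further Notch ligands and receptors, 4 were higher in choroid and 3 lower. *Dlk1*, a non-canonical ligand, was higher by 7.62 on the log2 scale, *Notch3*, the receptor of mural cells, by 4.34 and *Notch2* by 2.88, whereas the neuronal ligand *Dner* had a log2 difference of -3.93, *Dll3* of -2.93 and *Dlk2* of -0.94. Of 20 nuclear partners and targets, 14 were higher in choroid, led by *Heyl* with 5.47, *Id3* with 4.06 and *Myc* with 3.86, and 3 lower, *Hes5* with -4.19, *Dtx1* with -1.21 and *Snw1* with -0.16. *Heyl*, the third gene of the Hey family, thus differed by more than *Hey1*, while *Hes5*, a target used by neural progenitors and glia, was higher in retina as *Hey2* was.

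Of 20 genes for processing and modification of Notch, 16 were higher in choroid, among them the sheddase *Adam17* (1.88), the protease *Furin* (1.78) and the presenilin *Psen2* (1.63), and 3 were lower, the ubiquitin ligases *Neurl1a* (-2.48) and *Fbxw7* (-1.50) and the fringe enzyme *Rfng* (-0.54). Of 30 tip cell genes, 29 were higher in choroid and 0 lower, with *Igfbp3* at 6.55, *Plaur* at 6.23 and *Lama4* at 5.54. Of 18 guidance genes, 9 were higher, led by *Ntn1* (7.41), *Slit3* (5.85) and *Plxnd1* (4.53), and 8 lower, led by *Unc5d* (-6.19), *Robo2* (-4.01) and *Slit2* (-3.72). The other receptors of the *Unc5b* family on this list, *Unc5a* (-3.13) and *Unc5c* (-2.90), named after their values were seen, were lower in choroid like *Unc5d* and opposite to *Unc5b*. In the apelin axis the other ligand *Apela* was lower in choroid (-4.92), and the peptidases *Mme* (4.60) and *Ece1* (1.95) were higher. Of 16 arterial and venous genes, 15 were higher in choroid, with *Mgp* (7.78), *Dkk2* (7.42) and *Fbln5* (6.61) in front, and *Slc38a5*, an amino acid transporter of retinal vessels, was lower (-1.09).

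Deletion of *Tgfbr2* in the endothelium was compared within each diet to see whether it changes the tip cell and Notch genes. None of the 10 genes passed the test of genotype, in choroid or retina, with or without PLX. In choroid, limma called 0 of 10 genes without PLX and 0 of 10 with PLX, against a background of 0.00423% of 23619 genes in each of these comparisons, which is 1 gene. At an unadjusted p under 0.05 it had 2184 genes without PLX, 1 of them among the 10, and 889 with PLX, 0 of them among the 10. In retina it called 0 of 10 genes and 0% of 23243 genes without and with PLX, while 758 and 629 genes, 0 and 1 of them among the 10, had an unadjusted p under 0.05.

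The gene with the largest genotype difference was *Aplnr* in choroid without PLX. It had 290.4, 234, 443, 328 and 1010.0 normalized counts in control – PLX and 1182, 679, 669, 1078 and 1083 in Tgfbr2ΔEC – PLX mice. All 5 Tgfbr2ΔEC choroids were above 4 of the 5 controls, and the fifth control, mouse 5, lay within their range. The log2 difference was 1.19 ± 0.42 (SE; 95% interval 0.32 to 2.06), a 2.29-fold higher level. It did not pass the test over all genes (adjusted p = 0.294, limma, with 0.15 to 0.999 over 31 alternatives), while the exact two-sided permutation test of this gene gave p = 0.0238. Without mouse 5 the log2 difference was 1.53 (exact permutation p = 0.0159), and over the 10 mice left out in turn it was at least 1.00. With PLX, *Aplnr* had 229, 823, 683, 422 and 252.2 in controls and 451, 807, 361, 276 and 1034 in Tgfbr2ΔEC mice, with a log2 difference of 0.29 ± 0.42 (SE). The groups overlapped widely there, and the interaction of genotype and diet for this gene did not pass the test either (-0.90 ± 0.59 SE, adjusted p = 0.93, limma).

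The Tgfbr2ΔEC – PLX choroids also held more retinal RNA. The neural retina score, over 10 photoreceptor markers with none at 0, was 11.3 to 12.9 in these 5 choroids and 7.38 to 10.6 in the control – PLX choroids, without overlap (exact permutation p = 0.00794, the smallest that 5 mice against 5 can give). The summed level of the 10 markers was 47113 to 138768 against 2816 to 27026 normalized counts, and all 10 markers had an unadjusted p under 0.05, with log2 differences of 2.17 to 2.96, while limma called 0 of them after adjustment. Adjusted for this score the difference of *Aplnr* was 1.31 (adjusted p = 0.999, limma), and the part of the retinal RNA in it was not tested further. Mice of the + PLX groups had scores of 7.28 to 12.8 and 8.71 to 10.2.

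The ligand of *Aplnr* and the remaining genes differed less. *Apln* had 454, 625, 420.3, 355 and 737 normalized counts in control – PLX and 438, 381, 308, 418 and 339.8 in Tgfbr2ΔEC – PLX choroids. The ranges overlapped, with the 3 highest values in controls (log2 -0.42, 95% interval -0.90 to 0.06, adjusted p = 0.646, limma). *Esm1* had 572, 597.9, 615, 481 and 557 in control – PLX and 450.5, 454, 492, 443 and 668 in Tgfbr2ΔEC – PLX choroids, 3 of the latter lying below all controls and mouse 10 above all (log2 -0.18, 95% interval -0.51 to 0.14). The other 7 genes had log2 differences of -0.07 (*Notch1*) to 0.16 (*Notch4*) without PLX. With PLX all 10 lay between -0.07 (*Notch1*) and 0.29 (*Aplnr*). The interval of *Dll4*, the central ligand, was -0.22 to 0.40 without PLX and -0.16 to 0.46 with PLX, and that of *Jag1* -0.11 to 0.38 and -0.12 to 0.37, so that differences in choroid beyond these bounds lay outside the 95% intervals.

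In retina the genotype comparison rested on few reads for *Esm1* and *Aplnr*, whose 95% intervals were -1.10 to 1.52 and -2.34 to 2.53 without PLX. With PLX the genotypes did not overlap in retina for 1 of the 10 genes, *Hey1*, and for 0.422% of 23243 genes. It had 288, 219.6, 287, 259 and 261 normalized counts in control + PLX and 334, 385, 323, 306 and 311 in Tgfbr2ΔEC + PLX retinas, all 5 of the latter being above all 5 of the former (log2 0.34 ± 0.15 SE, exact permutation p = 0.00794). Over all genes it did not pass (adjusted p = 1, limma, with 0.955 to 1 over 31 alternatives). Without PLX the retinas had 326, 334, 287, 235 and 329.8 and 304, 343, 321, 255 and 188 normalized counts and overlapped (log2 -0.12 ± 0.15 SE). The difference between the diets in this genotype effect was 0.45 ± 0.21 (SE; unadjusted p = 0.0461 and adjusted p = 1, limma). In the same comparison the melanocyte score did not overlap either (0.95 higher in Tgfbr2ΔEC + PLX, exact permutation p = 0.00794) and the astrocyte score differed by -0.43 (exact permutation p = 0.0238), and their part in the result was not tested. The genotypes were compared by exact test in 40 combinations of gene, tissue and diet, and *Aplnr* and *Hey1* were the 2 with p at or under 0.05, a share near the 4.62% of the 93724 such tests over all genes, so that the count of 2 does not set the 10 genes apart.

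**Figure D3:**
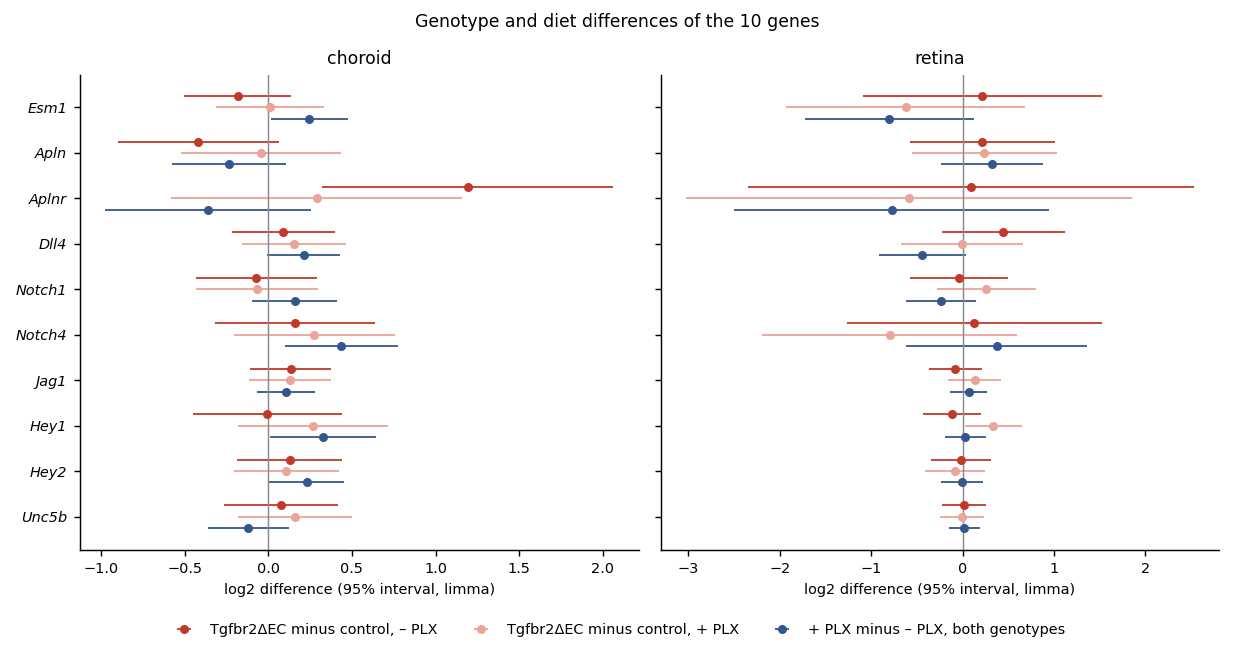
Log2 differences of the 10 genes between genotypes within each diet and between diets over both genotypes, in choroid (left) and retina (right), with 95% intervals from limma; the horizontal scales differ. The interval of *Aplnr* without PLX in choroid, 0.32 to 2.06, excludes 0, and the intervals of *Aplnr*, *Esm1* and *Notch4* are wide in retina.

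The interaction of genotype and diet, which asks whether MP depletion alters the effect of the deletion, was called for 0 of 10 genes in choroid and in retina, with a background of 0% of the genes in both. At an unadjusted p under 0.05 there were 1552 genes in choroid, 0 of them among the 10, and 567 in retina, 1 of them among the 10 (*Hey1*).

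MP depletion was then compared over both genotypes, 10 mice against 10. In choroid limma called 0 of the 10 genes, against a background of 7.13% of 23619 genes, and 4 of the 10 had an unadjusted p under 0.05 (4551 of all genes). The diet worked in both tissues: 16 of 17 MP markers fell in choroid and 17 of 17 in retina, and the MP score dropped by 2.22 in choroid and by 5.12 in retina, without overlap. The median log2 difference of the 10 genes in choroid was 0.18, against 0.00 over all genes, and 7 of the 10 were above 0.

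The largest of these differences was that of *Notch4*. It had 1656, 837, 697, 1230.5 and 1099 normalized counts in control – PLX and 1184, 2021, 1072, 1143 and 1664 in control + PLX choroids. In Tgfbr2ΔEC choroids it had 1032, 1026, 1107, 1123 and 1731 without and 1720.3, 1849.6, 1694, 2182 and 1076 with PLX. The 3 highest values with PLX, 2021, 1849.6 and 2182, were above all – PLX choroids, and the rest overlapped. The log2 difference over both genotypes was 0.44 ± 0.16 (SE; 95% interval 0.10 to 0.78, adjusted p = 0.126, limma; exact permutation p = 0.0234 within genotypes). Adjusted for the neural retina score it was 0.61 (adjusted p = 0.0207, limma), the one setting in which a gene of the 10 was called for diet.

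*Esm1*, *Hey1* and *Hey2* also had intervals above 0 for diet in choroid, at 0.25 (0.02 to 0.47), 0.33 (0.01 to 0.64) and 0.23 (0.01 to 0.45) on the log2 scale, with adjusted p = 0.217, 0.243 and 0.246 (limma). *Esm1* had 595, 620.4, 847, 541 and 559.8 normalized counts in control + PLX and 489, 679, 889, 559 and 590.0 in Tgfbr2ΔEC + PLX choroids. Of these 10 values 3 lay above all – PLX choroids. *Hey1* had 384, 560.3, 526, 441 and 364 and 605, 414, 456, 529 and 293 in control and Tgfbr2ΔEC choroids without PLX. With PLX it had 366, 366, 584, 544 and 820.1 in control and 580.5, 579, 779, 660.3 and 512 in Tgfbr2ΔEC choroids. The 2 lowest *Hey1* values with PLX, both 366, were controls. *Hey2* had 124 to 200.0 without and 139 to 226 with PLX. *Dll4* followed with 0.21 (95% interval -0.01 to 0.43), 4 of its 10 values with PLX lying above all values without.

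*Notch1* and *Jag1* had smaller differences with PLX in choroid, 0.16 (95% interval -0.10 to 0.41) and 0.11 (-0.07 to 0.28). Below 0 were *Unc5b* with -0.12 (-0.36 to 0.12), *Apln* with -0.24 (-0.58 to 0.10) and *Aplnr* with -0.36 (-0.98 to 0.26). The pan-endothelial score was higher by 0.23 with PLX in choroid (exact permutation p = 0.000346 within genotypes), with 7 of its 12 markers called as higher, and its part in these differences was not tested.

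In retina limma called 0 of 10 genes for diet, against a background of 1.09% of 23243 genes, and 0 of the 10 had an unadjusted p under 0.05 (1459 of all genes). *Dll4* had 43.9, 35.8, 24.9, 36.03 and 41.0 normalized counts in control – PLX and 42.0, 28.4, 22.6, 40.7 and 24.4 in control + PLX retinas. In Tgfbr2ΔEC retinas it had 82.0, 57.0, 43.5, 33.9 and 40.6 without and 45.6, 31.6, 24.3, 51.3 and 14.3 with PLX. The values overlapped, and the log2 difference was -0.44 (95% interval -0.92 to 0.04). *Jag1*, *Hey1*, *Hey2* and *Unc5b*, the genes with the smallest spread within groups in retina, lay between -0.01 and 0.06, with intervals no wider than -0.24 to 0.27. *Notch1* and *Notch4*, which varied more, had log2 differences of -0.23 and 0.37.

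Whether diet acted differently in choroid and retina was tested over all 40 libraries. Limma called 0 of the 10 genes, against a background of 1.37% of 24317 genes, and 2 of the 10 had an unadjusted p under 0.05 (2485 of all genes). These were *Dll4*, whose difference with PLX in choroid exceeded that in retina by 0.65 ± 0.25 (SE; adjusted p = 0.282, limma), and *Esm1*, by 1.05 ± 0.45 (SE; adjusted p = 0.382, limma), the latter with retinal values at the floor. The pan-endothelial score was higher with PLX in choroid and lower in retina (log2 difference -0.24, exact permutation p = 0.0396), and its part in these differences was not tested further.

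Beyond the 10 genes, PLX changed several genes of the same pathways in choroid, read against the 7.13% of all genes. Of 30 tip cell genes, 7 rose and 1 fell. With the neural retina score in the model 4 were called as higher and 2 as lower, and among genes with a mean of at least 10 these were 10 and 2. The VEGF family ligand *Pgf* rose by 0.57 on the log2 scale, the endothelial transcription factor *Sox17* by 0.59, the VEGF receptors *Flt4* by 0.37 and *Flt1* by 0.31, and the transcription factor *Ets1* by 0.20. The chemokine receptor *Cxcr4*, found on tip cells and on leukocytes, fell by 0.79 (log2 -0.79, adjusted p = 0.000349, limma). Of 16 arterial and venous genes, 5 rose and 0 fell: *Sema3g* by 0.57, *Dkk2* by 0.37, *Fbln5* by 0.29, the venous regulator *Nr2f2* by 0.25 and the venous receptor *Ephb4* by 0.21. Of 18 guidance genes, 3 rose and 0 fell, the netrin ligand *Ntn1* by 0.42, *Sema3a* by 0.54 and *Slit3* by 0.37. The median log2 difference was 0.19 for the tip cell, 0.24 for the arterial and venous and 0.15 for the guidance genes.

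Of 20 nuclear partners and targets of Notch, 5 were called. The target *Hes1* and the coactivator *Maml3* rose by 0.29 and 0.34, while *Rbpj*, the DNA-binding partner of all Notch receptors, and the deltex genes *Dtx4* and *Dtx3l* had log2 differences of -0.42, -0.39 and -0.40. Of 20 processing genes 2 were called, a share near that of all genes: *Adam17* and the fringe enzyme *Lfng* fell, with -0.35 and -0.26. Of 8 ligands and receptors 1 was called, *Dlk1*, which rose by 0.72. Of 6 genes of the apelin axis, 2 were called, 1 in each direction, and the one that fell was *Arrb2*, an arrestin also abundant in leukocytes, with a difference of -1.34. The call of the gene that rose was lost with a pseudocount of 5 and without the filter on low values. It was also lost with libraries scaled to their sum and with the neural retina score in the model. When 1 mouse was left out at a time, the called tip cell genes numbered 6 to 10 and the arterial and venous genes 4 to 7. The called guidance genes numbered 2 to 5 (5 without mouse 12, 4 of them higher), those of the apelin axis 1 to 3 (3 without mouse 15), the processing genes 1 to 2 and the ligands and receptors 1 to 2. The nuclear genes called as higher numbered 1 without mouse 1, 5, 6, 7, 9, 16, 19 or 20 and 3 without mouse 2, 10, 13 or 18, and 1 with the neural retina score in the model, so that single mice changed these counts. The MP score dropped by 2.22 beside these differences, and the mural and fibroblast scores were higher by 0.24 and 0.16 (exact permutation p = 0.00255 and 0.0157 within genotypes), and the part of these scores in the differences was not tested. With the pan-endothelial score in the model, the calls over all genes went from 1684 to 694, of which 44 were higher with PLX, and 0 of the tip cell, arterial and venous, guidance, nuclear, and ligand and receptor genes were called, 1 of the apelin axis and 2 of the processing genes. This score was itself higher with PLX in choroid, by 0.23. The covariate and the diet therefore cannot be told apart in this fit, and no cause was tested by it.

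**Figure D4:**
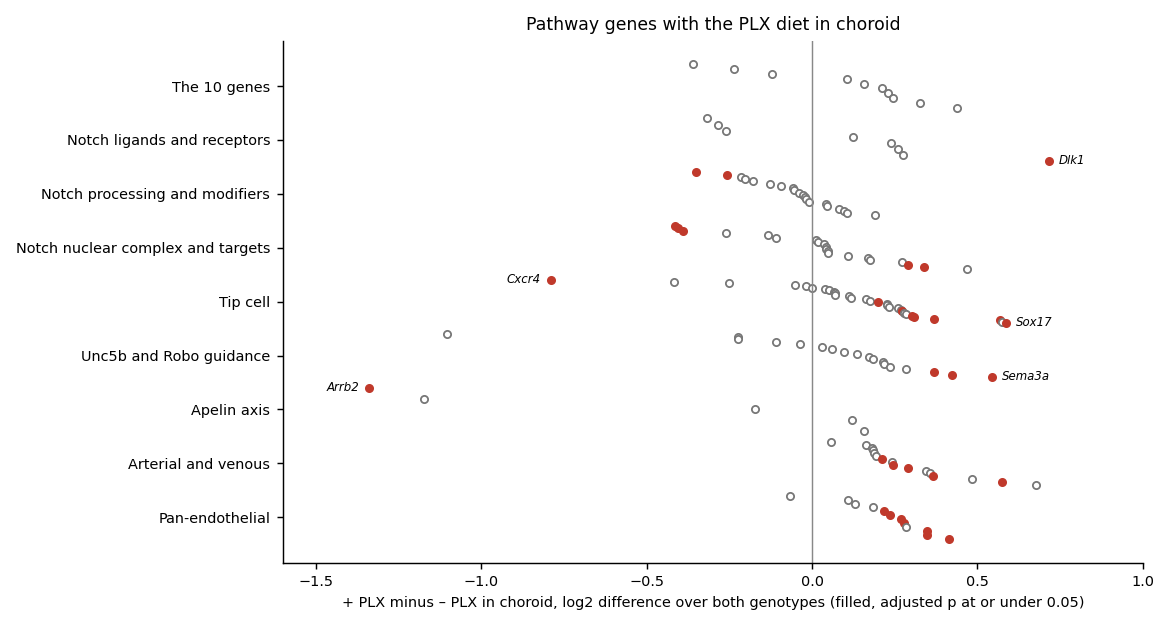
Log2 difference of the listed genes reported here between + PLX and – PLX choroids over both genotypes, grouped by list; filled points have an adjusted p at or under 0.05 (limma). None of the 10 genes is filled, 7 of the filled tip cell genes lie above 0 and *Cxcr4* below, and *Arrb2* has the lowest value, -1.34.

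In retina 0 genes of these 7 pathway lists were called for diet or genotype, and in choroid 0 were called for genotype with or without PLX. A diet difference that differed between choroid and retina was called for 2 of the 118 listed genes, *Cd34* (0.68) and *Arrb2* (-1.31), a share near the 1.37% of all genes.

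The 20 mice of a tissue also showed how the genes varied within groups. The within-group standard deviation on the log2 scale was smallest for *Jag1* in choroid, 0.19, and for *Unc5b* in retina, 0.14, and largest for *Aplnr*, 0.73 in choroid and 2.05 in retina. For comparison, its median over genes with a mean of at least 100 was 0.22 in choroid and 0.26 in retina. *Aplnr* in choroid and *Notch4* in retina, with 1.19, stood above the ninth decile of these genes, 0.49 in choroid and 0.47 in retina.

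The deviations of the 10 genes from their group means were compared with those of the pan-endothelial score, 20 relations in all, over the 20 mice of each tissue and with permutations within groups. In retina *Jag1* was lower where the score was higher (Pearson's r = -0.85, permutation p = 1e-05, the smallest that 100000 resamples can give, adjusted p = 0.0002; Spearman's rho = -0.81, permutation p = 5e-05, adjusted p = 0.001). When the 2 mice with the most extreme scores were left out, r was -0.80. *Hey1* was higher where the score was higher (r = 0.69, permutation p = 0.00278, adjusted p = 0.0278; rho = 0.61, permutation p = 0.0131, adjusted p = 0.0875; 0.61 without those 2 mice). The score had a gap between 0.01 and 0.21 above the group mean, and within the 14 mice below it and the 6 above it r was -0.64 and -0.55 for *Jag1* and 0.51 and 0.50 for *Hey1*. Relations with the MP, mural, Müller glia and neural retina scores are given without a test, as far as r was beyond 0.5 in either direction. In retina these were *Hey1* with the MP score (r = 0.69), *Aplnr* with the mural score (0.53) and *Hey2* with the neural retina score (-0.52). In choroid they were *Aplnr* and *Apln* with the MP score (0.61 and 0.59), *Hey1* with the mural score (0.55) and *Notch4* with the neural retina score (0.54). These relations were computed after the data had been seen. In retina *Jag1* passed by both measures, and *Hey1* by Pearson's r but not by Spearman's rho. For the other 8 genes in retina and for all 10 in choroid the relation with the pan-endothelial score passed by neither (adjusted p from 0.121 to 0.935 for Pearson's r and from 0.0875 to 0.943 for Spearman's rho, the lowest being that of *Notch1* in retina, rho = -0.57).

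**Figure D5:**
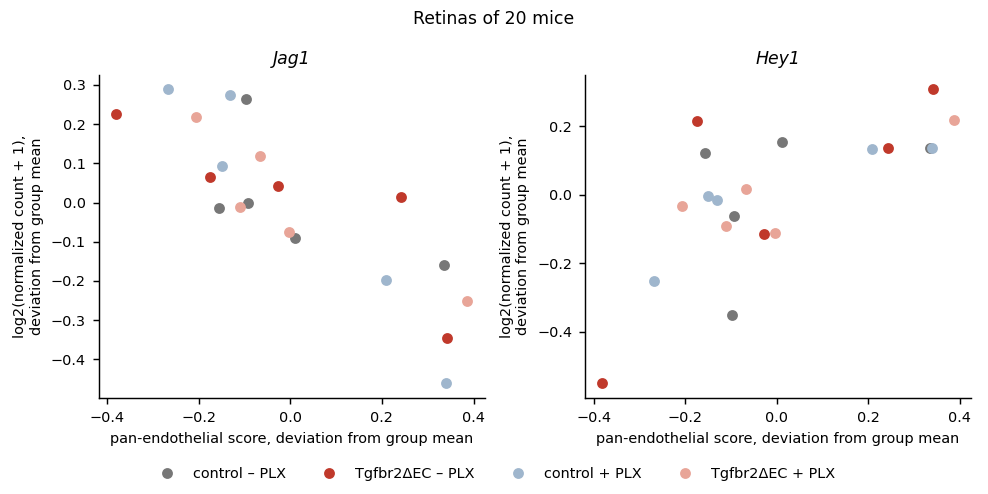
*Jag1* (left) and *Hey1* (right) against the pan-endothelial score in the 20 retinas, both as deviations from the group mean on the log2 scale, colored by group. *Jag1* falls and *Hey1* rises along the score, with r = -0.85 and 0.69, and 6 mice lie apart at the right.

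Among themselves the 10 genes were compared in 45 pairs per tissue, again as deviations from the group means and without a test. In choroid the strongest pairs were *Jag1* and *Hey1* (r = 0.69, 20 mice), *Hey2* and *Unc5b* (0.65), *Jag1* and *Unc5b* (0.61) and *Apln* and *Dll4* (0.59), and in retina *Jag1* and *Hey1* (-0.68) and *Notch1* and *Jag1* (0.50). The pair of *Jag1* and *Hey1* thus had opposite signs in the 2 tissues. Likeness to other genes was searched among protein-coding genes with a mean of at least 50, 13640 in choroid and 12772 or 12773 in retina, and the highest r per gene was 0.79 to 0.92 in choroid and 0.72 to 0.90 in retina. These values are the highest of all genes compared and are given as a description. In choroid *Jag1* was most like *Pcgf3* (0.92), *Mtmr6* (0.92) and *Slf2* (0.91), *Hey1* most like *Ephb1* (0.92), *Rasgef1b* (0.87) and *Cnnm4* (0.85), and *Hey2* most like *Gosr1* (0.91), *Scube3* (0.88) and *Erlin2* (0.87). In retina *Jag1* was most like *Kdsr* (0.90), *Dmd* (0.89) and *Rsrc2* (0.88), and *Notch1* most like *Pomt2* (0.89), *Zfp217* (0.88) and *Caskin1* (0.87). *Hey2* was most like *Kremen1* (0.89), *Klhl29* (0.89) and *Lrrc2* (0.88) there, and *Hey1* most like *H2-D1* (0.89), *B2m* (0.87) and *Irgm1* (0.86).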

How the data were processed

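The members and the gene lists were chosen with earlier results of these data known. Per the labels, stranded libraries of polyadenylated RNA were sequenced on an Illumina instrument. The authors estimated reads with Salmon 1.10.1 on GRCm39, used tximport to sum them per gene, and scaled the result by DESeq2 1.36.0; the deposited signal per gene is called normalized count here and is not whole, so no count test was run. Salmon divides reads among transcripts, and a gene's value can depend on the transcript lengths assigned: the annotation used here holds 2 transcripts of *Aplnr*, of 313 and 3699 bases, and 25 of *Notch4*, of 247 to 6625. Transcript values were not analysed here. The median ratio to the geometric mean, over 15800 genes above 0 everywhere, was 1.0082 in each of the 40 libraries, so both tissues had been scaled together. All columns were matched to samples.

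Tests used limma 3.58.1 in R 4.3.3 (mean-variance trend) on log2(normalized count + 1), which understates changes of low genes, for genes whose mean reached 1 and the groups of a tissue, or all 8 groups, in one fit; an adjusted p (Benjamini-Hochberg) at or under 0.05 was called. The fit was tested on simulated data with known changes. Two-sided exact permutation tests enumerated 252 relabellings, or 63504 within genotypes. Python 3.11.15, numpy 2.4.6, pandas 2.3.3, scipy 1.17.1 and matplotlib 3.10.9 were used. The mouse numbers pair the tissues, since the library names show 2 tissues of the same mouse; deviations of same-numbered libraries correlated at -0.20 to 0.35, over 0.1 in 14 of 20 mice. The authors' covariates, sex and a neuronal percentage, were replaced by scores as alternatives. Beside the 10 genes, listed genes were named where called, except 1 that is not reported here (up to 6 per list by p, or the 3 largest per direction between tissues; of the likeness search, the genes with the highest r).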

Additional observations from a re-analysis of the deposited data

Results flagged for a closer look

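Among 80 groups of 5 mice (10 genes, 8 groups), 16 held 1 sample that stood apart from the other 4, the gap to the nearest sample being more than 0.710 of the range of the group. For normally distributed values about 1 in 20 groups, or 4.0, would do so. The gaps were taken on normalized counts, some of them near the floor, and the share over all genes was not measured. The count of 16 therefore does not set the 10 genes apart. The causes were not tested.

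*Aplnr* was apart in all 4 groups of retinas, with 1 high mouse in each: mouse 5 at 50.3 normalized counts (gap 0.881 of the range), mouse 8 at 58.3 (0.924), mouse 14 at 60.4 (0.983) and mouse 20 at 27.1 (0.941). In choroid the control – PLX mouse 5 was again high, at 1010.0 against 234 to 443 (0.731). *Esm1* in retina was apart in 3 groups at values near the floor, at 7.35 in Tgfbr2ΔEC – PLX (0.714), 8.07 in control + PLX (0.89) and 0.98 in Tgfbr2ΔEC + PLX, where the other 4 were listed at 0 (1.0).

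In choroid *Esm1* was high in Tgfbr2ΔEC – PLX mouse 10 (668, gap 0.784) and control + PLX mouse 13 (847, gap 0.741). *Apln* was high in control + PLX mouse 13 (568, gap 0.85) and low in Tgfbr2ΔEC + PLX mouse 19 (194, gap 0.716). *Notch4* was high in Tgfbr2ΔEC – PLX mouse 10 (1731, gap 0.862) and *Jag1* in Tgfbr2ΔEC + PLX mouse 18 (2427, gap 0.821). In retina *Hey2* was high in control – PLX mouse 5 (525, gap 0.739) and control + PLX mouse 13 (555, gap 0.915).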

How the results depend on the processing

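When the model held the neural retina score, 1 of the 10 genes was called for diet in choroid, *Notch4* (0.61, adjusted p = 0.0207, limma), and *Jag1* was no longer called between tissues (-0.32, adjusted p = 0.303). With the pan-endothelial score as a covariate, 2 of the 10 genes and 1616 of all genes, against 19930, were called between tissues; *Jag1* turned to 2.38 and stayed called, and *Hey1* turned to -0.94 and was no longer called. Both scores separate the tissues, so between tissues neither covariate can be told apart from the tissue. With the mouse number as replicate block, 10 genes were called between tissues and 0 for the difference in diet effect, so the pairing changed no call. Leaving out 1 mouse at a time kept the count at 0 within each tissue and at 10 between tissues; the number of exact tests at or under 0.05 was 2 to 4, with 4 without mouse 10. Of 672 alternatives for single genes, 661 kept direction and side of the threshold. Over all genes, leaving out 1 mouse moved the calls of genotype without PLX in choroid between 1 and 411. Depth limited *Esm1* and *Aplnr* in retina, and *Tgfbr2* in whole tissue did not report on its loss in endothelial cells.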
